A study of Mus musculus with 10 samples.

Results

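Cpa3, Mcpt8, Prss34, Hdc, Hpgds, Il1rl1, Mitf, Gzmb and Tpsb2 are mouse genes known for the granules, mediators, receptors and identity of mast cells and basophils, and every probe set that the array's annotation gives to them was followed across 10 Affymetrix Mouse Genome 430 2.0 arrays. Of these 9 genes, 7 had a probe set, 10 probe sets in all among the 45101 on the array, which together represent 18194 named genes. Prss34, a basophil protease, and Il1rl1, the receptor for interleukin-33, had no probe set under their symbols in the annotation used here and were not analysed here. For a gene to be tested, its brightest probe set had to exceed the array median on 2 or more arrays, and 6 of the 7 did. Tpsb2, a mast cell tryptase, was the exception.

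The RNA came from mouse leukemia stem cell lines cultured in Opti-MEM with serum, antibiotics, mercaptoethanol and stem cell factor, the ligand of Kit. The RH-RAS lines carry DNMT3A with the R882H substitution together with NRAS G12D, and 4 independently derived untreated lines were profiled. Lines 1 and 3 were profiled again after 4 days in 1 µM SGC0946, a small-molecule inhibitor of the histone methyltransferase Dot1l, so this group has 2 arrays. The reference lines were 1 progenitor line transformed by MLL-AF9, a fusion of the MLL methyltransferase to a partner of Dot1l, and 3 progenitor lines transformed by NUP98-JARID1A, a nucleoporin fused to a histone demethylase. No age, strain or vehicle is given in the sources used here, and each array is 1 culture of 1 line, so MLL-AF9 stands for a single line. The values are log2 RMA intensities, a scale on which a difference of 1 is a doubling. Array medians lay between 5.72 and 5.82, and a level below that band may be background, since RMA gives no detection call and compresses low signals.

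Mast cells and basophils store proteases and histamine in cytoplasmic granules and release them, with newly made prostaglandins and leukotrienes, when antigen crosslinks IgE bound to the receptor built from Fcer1a, Ms4a2 and Fcer1g. Mast cells depend on stem cell factor acting on Kit and on the transcription factor Mitf, basophils on interleukin-3, and both on Gata2. Several of these genes, Cpa3, Hpgds and Kit among them, are also transcribed in early blood progenitors or other myeloid cells, so a level in a leukemia line is not by itself a sign of a mast cell.

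The promoters of 4 members whose levels are described below are shown because the members moved in different directions, and because GATA factors and Mitf are the best known regulators of this programme. The sequences are the 250 bases before the gene's start in RefSeq on GRCm38.p6, all read 5′ to 3′ on the minus strand, where the genes lie. They are chr3:20242182-20242431 for Cpa3, chr6:65144731-65144980 for Hpgds, chr14:56085198-56085447 for Mcpt8 and chr2:126618679-126618928 for Hdc. Capitals mark a GATA site (AGATAA or TGATAA) or an E box of the kind Mitf binds (CACGTG or CATGTG), searched on both strands.
Cpa3: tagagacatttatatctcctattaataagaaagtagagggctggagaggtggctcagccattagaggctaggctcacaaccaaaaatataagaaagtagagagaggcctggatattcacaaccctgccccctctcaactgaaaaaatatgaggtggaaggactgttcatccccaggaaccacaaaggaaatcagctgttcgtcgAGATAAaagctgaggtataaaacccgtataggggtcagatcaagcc
Hpgds: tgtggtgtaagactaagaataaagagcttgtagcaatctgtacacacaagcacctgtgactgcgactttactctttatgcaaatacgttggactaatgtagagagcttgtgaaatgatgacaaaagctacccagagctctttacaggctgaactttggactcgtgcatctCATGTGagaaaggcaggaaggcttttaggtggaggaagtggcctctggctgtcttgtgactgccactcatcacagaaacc
Mcpt8: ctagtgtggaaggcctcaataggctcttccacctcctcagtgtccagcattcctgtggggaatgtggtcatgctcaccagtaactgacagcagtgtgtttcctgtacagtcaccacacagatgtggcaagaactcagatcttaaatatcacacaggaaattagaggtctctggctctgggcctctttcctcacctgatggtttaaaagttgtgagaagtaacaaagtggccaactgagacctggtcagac
Hdc: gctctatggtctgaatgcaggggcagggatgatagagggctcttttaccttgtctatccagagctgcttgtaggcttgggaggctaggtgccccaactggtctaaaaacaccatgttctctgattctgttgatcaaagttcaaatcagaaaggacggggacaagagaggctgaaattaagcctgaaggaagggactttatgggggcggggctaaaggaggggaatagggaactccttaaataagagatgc
Cpa3 had a GATA site 46 to 41 bases before its start, and Hpgds an E box, CATGTG, 80 to 75 bases before it. The windows of Mcpt8 and Hdc held none of these letters. RefSeq's promoter table matched 8 of the 9 members, with 11 start sites, and Tpsb2 was not matched. A GATA site was found in 6 of the 11 windows, of 4 genes (Cpa3, Prss34, Il1rl1 and Mitf), and an E box in 2, of Prss34 and Hpgds. Among all 32851 promoters of the same length, 16.6% held such a GATA site and 17.6% such an E box. No match overlapped another. A match is a description of the sequence and not a measured binding site.

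The levels of the members set the 4 groups apart in different ways. The untreated RH-RAS lines had Cpa3 and Hpgds well above the array median and Mcpt8 below it. The NUP98-JARID1A lines and MLL-AF9 had high Mcpt8, Hdc and Mitf. Under SGC0946 Cpa3 fell and Hpgds and Mitf rose, each in the same direction in both treated lines. Gzmb stayed near or below the array median, and Tpsb2 was below it on all 10 arrays. In bulk RNA, fewer cells of a type and less RNA per cell cannot be told apart.

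**Figure D1:**
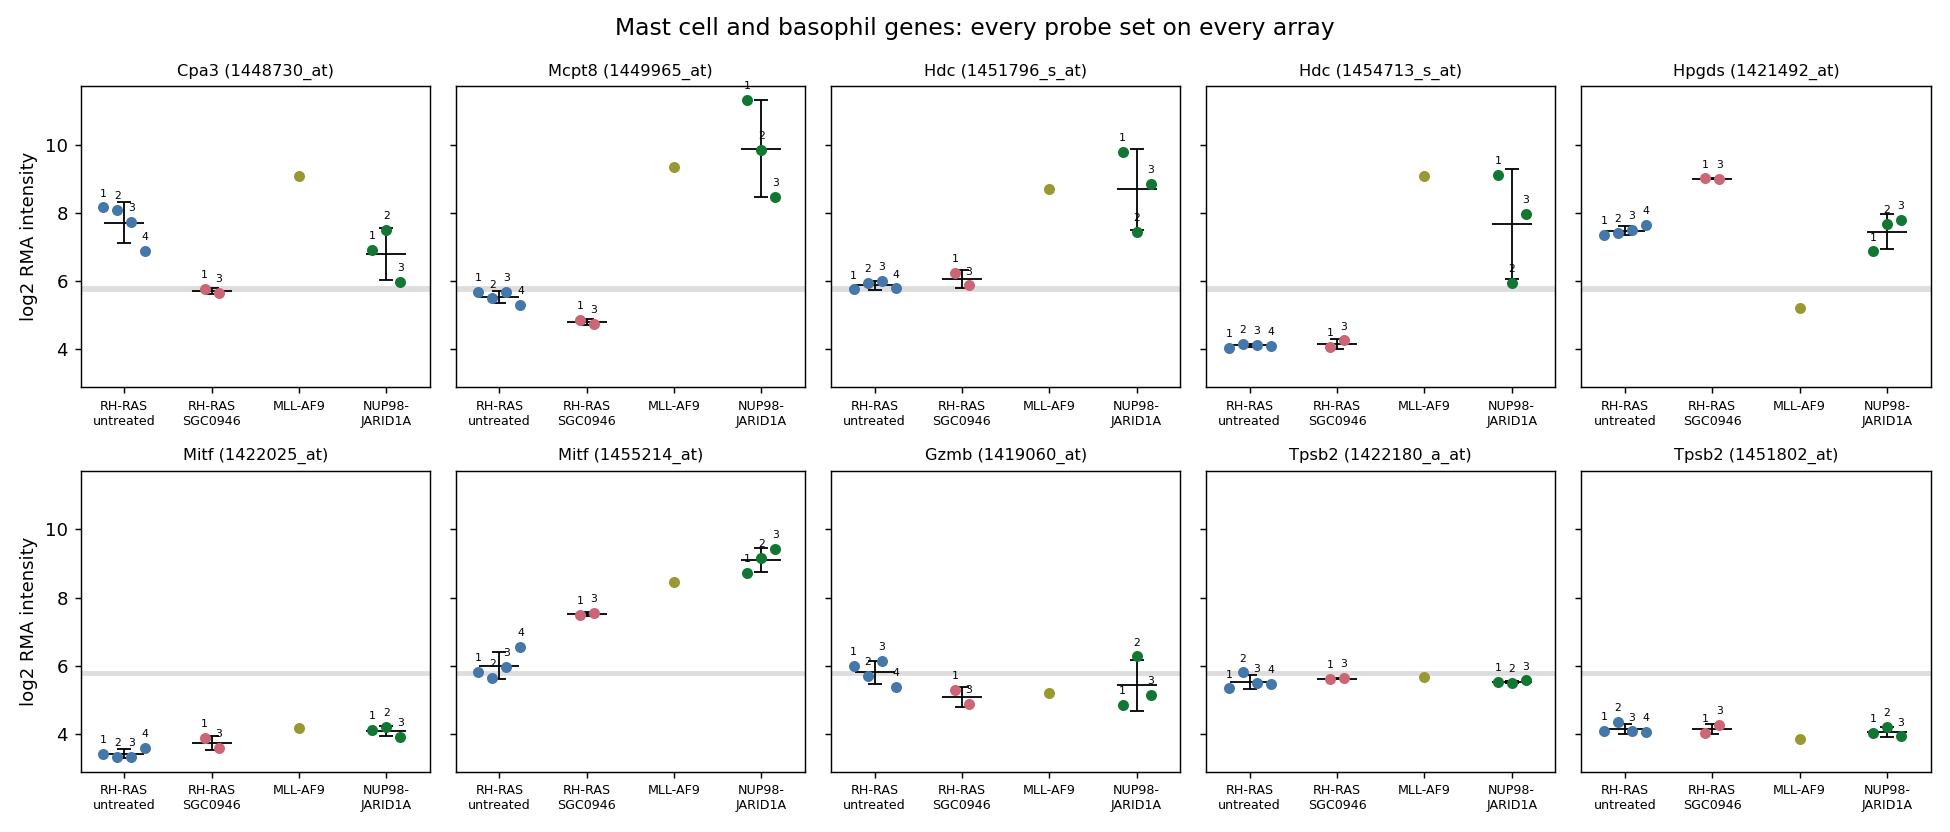
Each panel plots 1 probe set of a member on all 10 arrays, as log2 RMA intensity, by group; points are arrays with their line number, bars are the mean and SD of groups with more than 1 array, and the grey band spans the array medians. Mcpt8 lies at 5.68 or less on all 6 RH-RAS arrays and at 8.48 or more on the NUP98-JARID1A and MLL-AF9 arrays, while both Tpsb2 probe sets stay at 5.81 or less on all arrays.

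Among the granule proteases, Cpa3, which encodes carboxypeptidase A of mast cell granules, was the member that fell under SGC0946. Untreated lines 1 to 4 read 8.16, 8.08, 7.75 and 6.87 on the log2 scale, treated lines 1 and 3 read 5.77 and 5.65, MLL-AF9 read 9.09, and NUP98-JARID1A lines 1 to 3 read 6.91, 7.49 and 5.98. MLL-AF9 was highest, the untreated RH-RAS and NUP98-JARID1A lines overlapped, and the treated arrays were lowest, with a gap to every other array. Cpa3 fell by 2.24 ± 0.52 (SE) on the log2 scale under SGC0946, or 4.73-fold, with an adjusted p of 0.0345 (limma, Benjamini-Hochberg over 11993 genes), and both lines moved alike, by -2.39 and -2.10. In a paired fit, which sets each treated line against itself by taking the line as a block, its adjusted p was 0.0662, above the threshold of 0.05. Between NUP98-JARID1A (6.80 ± 0.76, SD, n = 3) and untreated RH-RAS lines (7.71 ± 0.59, SD, n = 4) the difference was -0.92 ± 0.42 (SE), adjusted p = 0.107, and it passed without NUP98-JARID1A line 2 (-1.27, adjusted p = 0.0445) or without untreated line 4 (-1.20, adjusted p = 0.0365). MLL-AF9 was 1.38 above the RH-RAS mean, a 2.60-fold higher level, and above every RH-RAS line.

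Mcpt8, the serine protease that marks mouse basophils, had the widest range of the members. Untreated lines 1 to 4 read 5.68, 5.49, 5.67 and 5.30, treated lines 1 and 3 read 4.85 and 4.73, MLL-AF9 read 9.34, and NUP98-JARID1A lines 1 to 3 read 11.31, 9.85 and 8.48. All 6 RH-RAS arrays were below their array median, so that the gene entered the test through the other 4 arrays alone, and MLL-AF9 lay within the range of the NUP98-JARID1A lines. The limma difference between NUP98-JARID1A and untreated RH-RAS lines was 4.35 ± 0.57 (SE) and that between MLL-AF9 and the RH-RAS mean 3.80. Both are given as descriptions, because the filter admitted Mcpt8 through the high arrays and the RH-RAS level may be background, in which case the true differences are larger. The lines of the NUP98-JARID1A group differed among themselves more than in any other member's main probe set, with an SD of 1.42. Under SGC0946 the difference was -0.88 ± 0.74 (SE), adjusted p = 0.518. That SE includes the spread of the NUP98-JARID1A lines, and in the limma fit of only the 6 RH-RAS arrays the adjusted p was 0.00286. The treated arrays differed from the untreated arrays of their own lines by -0.83 and -0.94, all of them below the array median.

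Gzmb encodes granzyme B, a serine protease of cytotoxic lymphocyte granules that mast cells and basophils can also make. Its arrays read 6.003, 5.70, 6.15 and 5.37 in untreated lines 1 to 4, 5.30 and 4.87 in treated lines 1 and 3, 5.20 in MLL-AF9, and 4.85, 6.28 and 5.15 in NUP98-JARID1A lines 1 to 3. The NUP98-JARID1A lines spanned all other groups, and 3 arrays were above their median. The difference under SGC0946 was -0.99 ± 0.42 (SE), adjusted p = 0.189, with -0.70 in line 1 and -1.27 in line 3; it passed without NUP98-JARID1A line 2 (adjusted p = 0.0218) and in the fit of the 6 RH-RAS arrays (adjusted p = 0.0119). Between NUP98-JARID1A and RH-RAS it was -0.38 ± 0.35 (SE), adjusted p = 0.395, and -0.81 with an adjusted p of 0.0260 without NUP98-JARID1A line 2. MLL-AF9 was 0.60 under the RH-RAS mean, a difference of -0.60 that does not reach the fold used for a single array. Tpsb2, the tryptase, read 5.34 to 5.81 on its first probe set (1422180_a_at) and 3.84 to 4.35 on its second (1451802_at). No array reached its median on either, the sets correlated at r = 0.273 over the 10 arrays, and no comparison was made.

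Of the enzymes that make mediators, Hdc, histidine decarboxylase, makes histamine. Its brighter probe set (1451796_s_at) read 5.75, 5.94, 6.003 and 5.78 in untreated lines 1 to 4, 6.23 and 5.87 in treated lines 1 and 3, 8.71 in MLL-AF9, and 9.80, 7.44 and 8.84 in NUP98-JARID1A lines 1 to 3. The RH-RAS arrays lay near the median whether treated or not, while MLL-AF9 lay within the range of the NUP98-JARID1A lines. Hdc was higher in NUP98-JARID1A lines by 2.82 ± 0.48 (SE), 7.08-fold, adjusted p = 0.00227, and higher in MLL-AF9 by 2.84, 7.17-fold. Under SGC0946 the difference was 0.17 ± 0.63 (SE), adjusted p = 0.910, with opposite signs in line 1 (0.48) and line 3 (-0.13).

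The second Hdc probe set (1454713_s_at) showed the same order with a lower floor. It read 4.05, 4.16, 4.13 and 4.10 in untreated lines, 4.06 and 4.26 in treated lines, 9.09 in MLL-AF9, and 9.11, 5.93 and 7.96 in NUP98-JARID1A lines 1 to 3. NUP98-JARID1A line 2 was the lowest of its group on both sets, and the sets correlated at r = 0.978 over the 10 arrays. All 6 RH-RAS arrays were below the array median on this set, so its differences from them are not quantified.

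Hpgds, hematopoietic prostaglandin D synthase, makes the main prostaglandin of mast cells. Untreated lines 1 to 4 read 7.34, 7.41, 7.49 and 7.65, treated lines 1 and 3 read 9.01 and 8.998, MLL-AF9 read 5.22, and NUP98-JARID1A lines 1 to 3 read 6.87, 7.69 and 7.79. The treated arrays were above all others, MLL-AF9 was below all others and under its array median, and the untreated RH-RAS and NUP98-JARID1A lines overlapped. Hpgds rose under SGC0946 by 1.59 ± 0.28 (SE), 3.01-fold, adjusted p = 0.0153, by 1.67 in line 1 and 1.51 in line 3. NUP98-JARID1A and RH-RAS lines differed by -0.03 ± 0.22 (SE), adjusted p = 0.935, with a sign that turned under some settings. MLL-AF9 differed from the RH-RAS mean by -2.26, a 4.78-fold lower level. The MLL-AF9 level may be background, in which case the true difference is larger.

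Mitf, a basic helix-loop-helix leucine zipper factor, drives mast cell development and the transcription of many granule genes. Its brighter probe set (1455214_at) read 5.82, 5.64, 5.97 and 6.56 in untreated lines 1 to 4, 7.49 and 7.56 in treated lines 1 and 3, 8.47 in MLL-AF9, and 8.73, 9.17 and 9.44 in NUP98-JARID1A lines 1 to 3. On this set no groups overlapped, and the order from high to low was NUP98-JARID1A, MLL-AF9, treated RH-RAS and untreated RH-RAS. How many of all tested genes part the groups in this way is not given here, and MLL-AF9 is 1 array. Mitf rose under SGC0946 by 1.63 ± 0.32 (SE), 3.09-fold, adjusted p = 0.0198, by 1.67 in line 1 and 1.59 in line 3. It was higher in NUP98-JARID1A lines by 3.11 ± 0.25 (SE), 8.66-fold, adjusted p = 9.57e-05, and higher in MLL-AF9 by 2.47, 5.53-fold. These comparisons share untreated lines 1 and 3 as controls. Untreated lines 1 and 2 were below their array medians and line 3 was close to its own. The untreated level may therefore be background, in which case the true differences are larger. The other Mitf probe set (1422025_at) read 3.33 to 3.60 in untreated lines, 3.60 and 3.88 in treated lines, 4.17 in MLL-AF9 and 3.92 to 4.22 in NUP98-JARID1A lines. It was below the median on all 10 arrays and was not tested, and it correlated with the brighter set at r = 0.911. On it MLL-AF9 lay within the range of the NUP98-JARID1A lines.

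**Figure D2:**
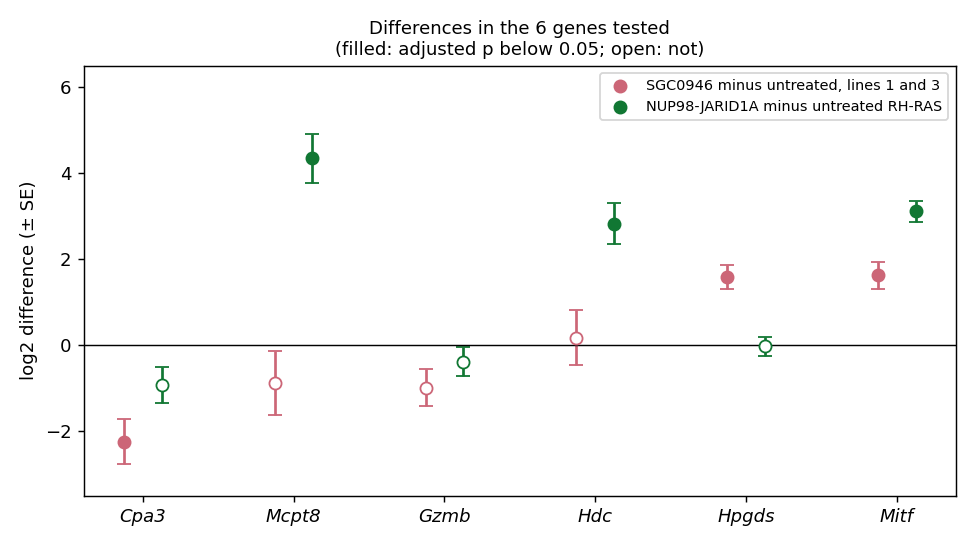
Points are limma log2 differences of the 6 tested members with their SE, for SGC0946 minus untreated in lines 1 and 3 and for NUP98-JARID1A minus untreated RH-RAS; filled points passed an adjusted p of 0.05. Cpa3 at -2.24 is the filled point below 0, Hpgds (1.59) and Mitf (1.63) are filled for the inhibitor, and Mcpt8 (4.35), Hdc (2.82) and Mitf (3.11) are filled for NUP98-JARID1A.

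Counted together, 2 of the 6 tested members rose under SGC0946, 1 fell and 3 did not pass. Of all 11993 genes tested, 12.0% passed, 6.84% higher and 5.12% lower, and the median difference was -0.36 over the members and 0.02 over all genes. In the paired fit 866 genes passed in place of 1434, and of the members Hpgds and Mitf. The calls of Cpa3, Hpgds and Mitf were lost without any 1 of the 4 arrays of lines 1 and 3, where few genes of the whole array passed, 28 to 149 depending on the array. Without the untreated or the treated array of line 1 the adjusted p was 0.185 and 0.155 for Cpa3, 0.102 in both fits for Hpgds, and 0.122 and 0.112 for Mitf. Without that of line 3 it was 0.127 and 0.187 for Cpa3, 0.0924 and 0.112 for Hpgds, and 0.105 and 0.133 for Mitf. With untreated line 4 as the control, none of the 3 passed, with -1.16 for Cpa3 (adjusted p = 0.347), 1.35 for Hpgds (0.0941) and 0.96 for Mitf (0.124).

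In NUP98-JARID1A lines, 3 of the 6 tested members were higher than in untreated RH-RAS lines, Mcpt8 counted although the filter admitted it through the high arrays alone, 0 were lower by limma, also at an unadjusted p of 0.05, and 3 did not pass. The share of all tested genes that passed was 51.0%, 32.5% higher and 18.5% lower, so 3 of 6 is close to that background. The median difference was 1.40 over the members and 0.10 over all genes. In MLL-AF9, with 1 array and no test, Mcpt8, Hdc and Mitf were at least 2 above the RH-RAS mean on the log2 scale and outside the range of the 4 lines, Hpgds was as far below, and Cpa3 and Gzmb did not reach that distance. This holds for 4.35% of all tested genes, 2.62% higher and 1.73% lower, and the median difference was 1.92 over the members and 0.07 over all genes.

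The untreated RH-RAS lines were not alike in these genes. Line 4 was below the mean of lines 1 to 3 in Cpa3 (-1.12), Gzmb (-0.58), Mcpt8 (-0.31) and Hdc (-0.12) and above it in Mitf (0.75) and Hpgds (0.24). In the 3 members called under SGC0946, Cpa3, Hpgds and Mitf, line 4 lay between untreated lines 1 to 3 and the treated arrays. The same position was found for 1092 of the 1434 genes called over the whole array, 76.2%. Line 4 has 1 array and the difference was not tested.

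**Figure D3:**
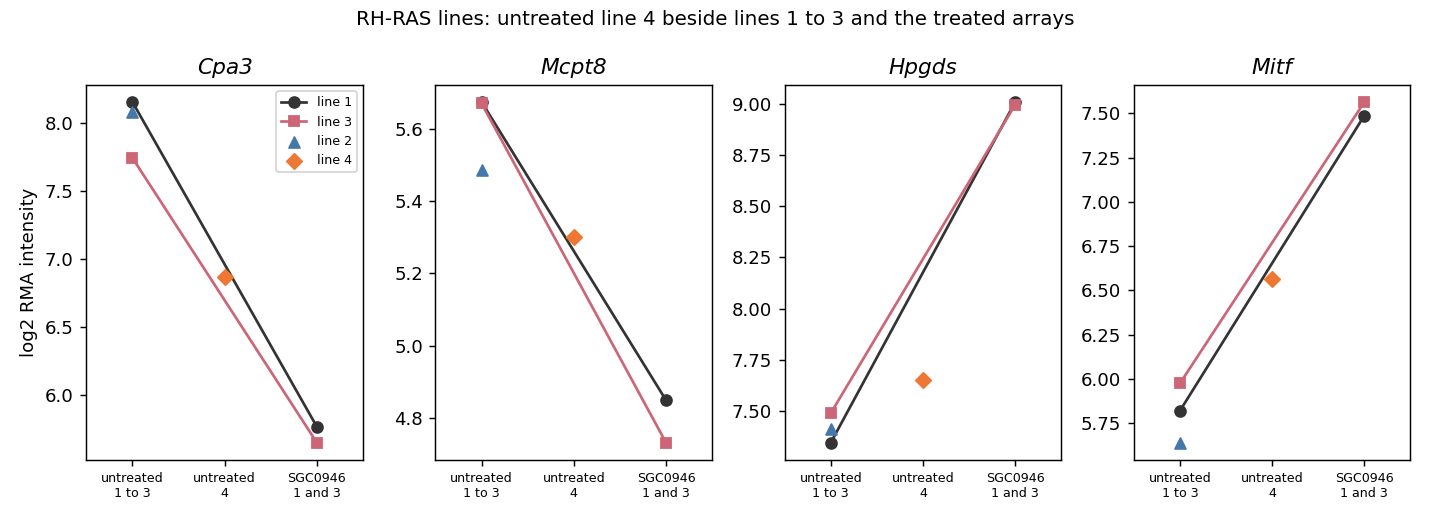
Log2 RMA intensity of Cpa3, Mcpt8, Hpgds and Mitf on the 6 RH-RAS arrays, with a line joining the untreated and treated array of lines 1 and 3 and separate markers for untreated lines 2 and 4; each panel has its own scale, which does not start at 0. Untreated line 4 lies at 6.87 for Cpa3 and 6.56 for Mitf, between the other untreated lines and the treated arrays.

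Across the 10 arrays Mcpt8 and Hdc followed each other most closely among the members (r = 0.920), then Hdc and Mitf (0.809) and Mcpt8 and Mitf (0.760), while Cpa3 and Hpgds ran opposite (-0.835). These coefficients describe the same 10 arrays, which share lines and group structure. The tested genes most like each member over those arrays were Bend3, Atr and Mrgbp for Cpa3 (r = 0.968, 0.964 and 0.955), and Top3b, Zfp395 and E2f4 for Mcpt8 (0.985, 0.983 and 0.982). They were Lrrk2, 4930438A08Rik and Spsb4 for Hdc (0.994, 0.993 and 0.990), and Slc15a4, Ank and Rhoc for Hpgds (0.992, 0.988 and 0.978). For Mitf they were Wwp1, Myo18a and Frrs1 (0.992, 0.991 and 0.990), and for Gzmb Vipr1, Zfp827 and Carmil2 (0.965, 0.943 and 0.933).

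Of 11 further proteases and protease-related genes, 9 had a probe set, and the chymases and mast cell proteases Cma1, Mcpt1, Mcpt2 and Mcpt4 were below the median on all arrays, with Cma1 at 4.59 to 4.80 and Mcpt4 at 4.03 to 4.27. Of the 5 tested, Ctsd passed under SGC0946 and Ctsg and Ctsd between NUP98-JARID1A and RH-RAS lines. Ctsg, cathepsin G, which neutrophils and mast cells store, was higher in NUP98-JARID1A lines by 5.06 ± 0.45 (SE), adjusted p = 0.000136. Ctsd, a lysosomal protease, rose under SGC0946 by 0.85 ± 0.21 (SE), adjusted p = 0.0387 (0.0720 in the paired fit, and 0.0569 without untreated line 2 or 4), and was higher in NUP98-JARID1A lines by 1.83. Tpsab1, another tryptase, differed by 0.25 (adjusted p = 0.272) and -0.05 (adjusted p = 0.705) in these comparisons. Tpsg1, a tryptase gene named after its values were seen, was above the median on all 10 arrays (6.20 to 6.53) and differed by 0.096 (adjusted p = 0.661) and 0.17 (adjusted p = 0.149). The shares of all genes that passed, 12.0% and 51.0%, are the background for these counts and for those of the lists that follow.

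Of the 3 chains of the IgE receptor, Fcer1g was the 1 above the array median on all arrays. Fcer1a, the chain that binds IgE, read 2.99 to 3.53, below the median throughout, and Ms4a2, the signal-amplifying beta chain, was above the median only on the MLL-AF9 array (5.99, against 4.05 to 4.24 in untreated RH-RAS and 4.77 to 4.92 in NUP98-JARID1A lines). Fcer1g, the gamma chain that other Fc receptors share, was bright on all arrays (11.95 to 13.57) and higher in NUP98-JARID1A lines by 0.85 ± 0.09 (SE), adjusted p = 0.000319. Of 12 tested genes of the receptor and its signalling, 2 rose and 2 fell under SGC0946 and 8 did not pass. The adaptors Gab2 (1.45, adjusted p = 0.0145) and Lcp2 (1.39, adjusted p = 0.0381, and 0.0707 in the paired fit) rose. The phospholipase Plcg1 (-1.06, adjusted p = 0.00632) and the adaptor Lat (-1.54, adjusted p = 0.0242) fell. Other probe sets of these genes gave smaller changes, down to 0.43 for Gab2, 0.45 for Lcp2 and -0.00 for Plcg1. In NUP98-JARID1A lines 6 were higher, 2 lower and 4 did not pass, with Gab2 (2.40, and 0.086 on another probe set), Lcp2 (2.28) and Lat2 (1.35) higher and the kinase Fyn (-2.67) lower.

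Of 10 tested receptors for growth factors and cytokines, 4 rose and 2 fell under SGC0946, and 5 were higher and 3 lower in NUP98-JARID1A lines. Kit, the stem cell factor receptor, read 9.91 to 10.71 in untreated RH-RAS and 8.56 and 8.71 in treated lines. In MLL-AF9 it read 11.39 and in NUP98-JARID1A lines 11.94 to 12.27. It fell by 1.98 ± 0.19 (SE) under SGC0946, adjusted p = 0.00347, and was higher in NUP98-JARID1A lines by 1.68 ± 0.19 (SE), adjusted p = 0.000392. Csf2rb, the shared beta chain of the interleukin-3, interleukin-5 and GM-CSF receptors, rose by 2.85 ± 0.26 (SE), adjusted p = 0.00339, and was higher in NUP98-JARID1A lines by 3.29. Il6ra, an interleukin-6 receptor chain, rose by 2.43 (adjusted p = 0.00522, with 1.40 on another probe set). Il18r1, the interleukin-18 receptor, fell by 1.89 (adjusted p = 0.00433) and was lower in NUP98-JARID1A lines, at -4.74. It was above the array median on the 6 RH-RAS arrays alone, so the filter admitted it where it is high. The NUP98-JARID1A level of Il18r1 may be background, so -4.74 is a description, although the gene is counted among the 3 lower. Il3ra, the interleukin-3 receptor's own chain, rose by 0.67 (adjusted p = 0.0287, and 0.0595 in the paired fit) and was higher in NUP98-JARID1A lines by 2.32. Il9r, Cd200r3, Hrh4, Ccr3 and Tslp were below the median on all arrays.

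**Figure D4:**
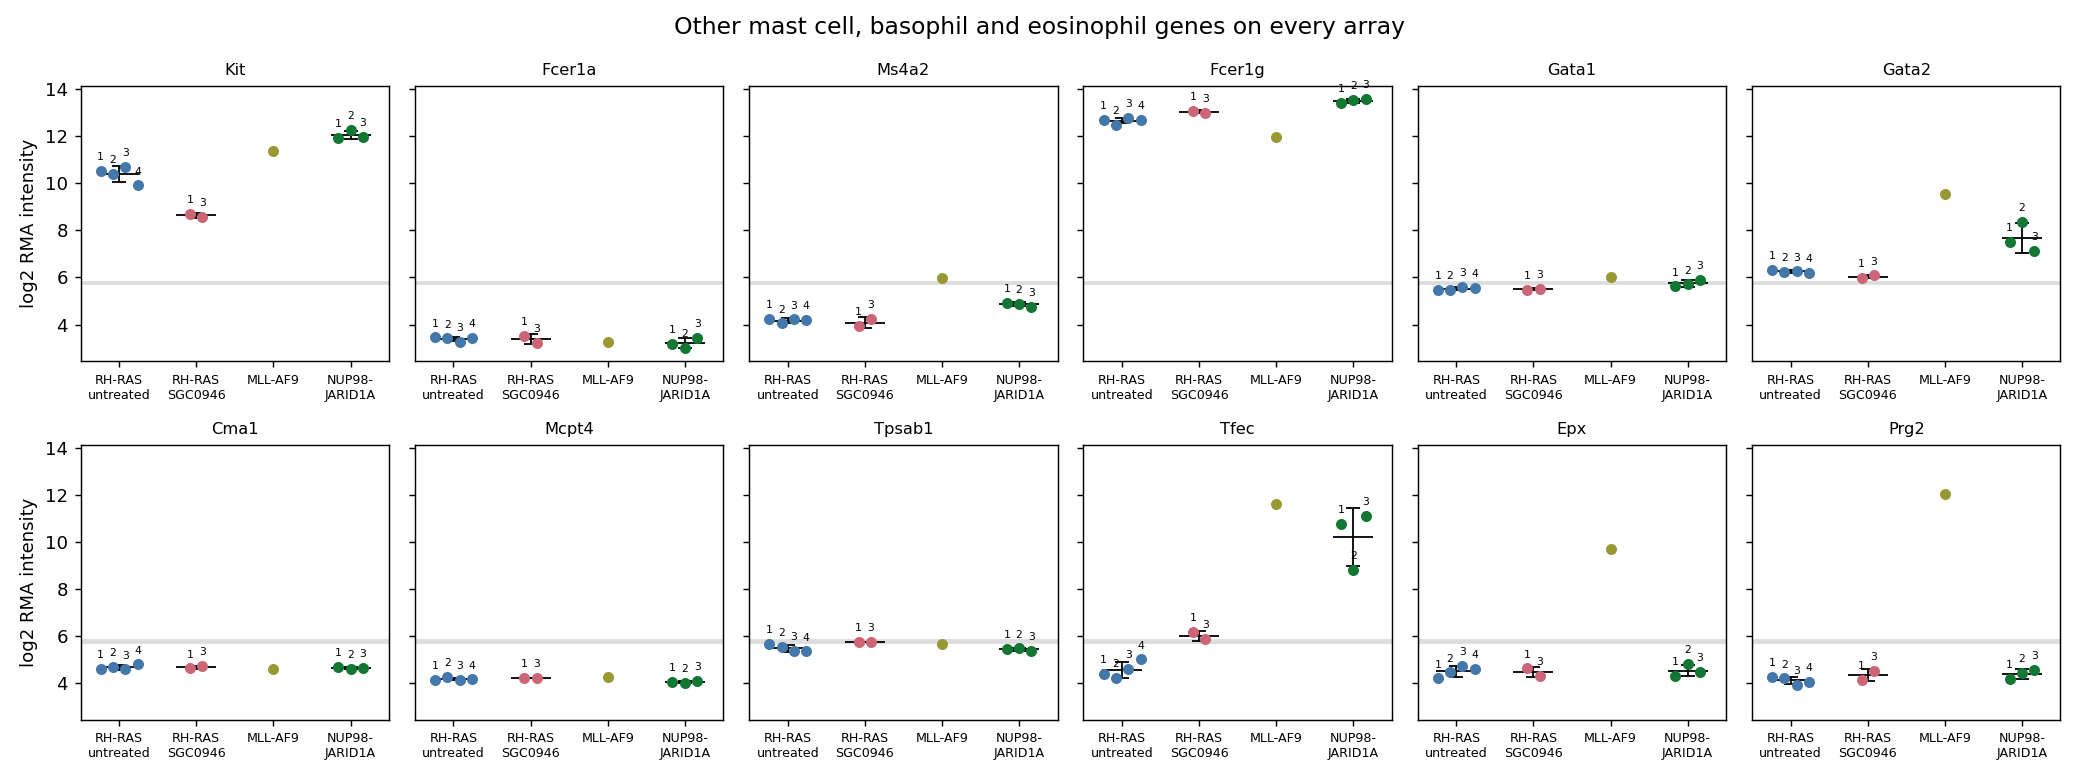
Log2 RMA intensity of 12 further mast cell, basophil and eosinophil genes on all 10 arrays, by group, with the mean and SD of groups with more than 1 array and the array medians as a grey band. Fcer1a, Cma1 and Mcpt4 lie below the band on all arrays, Kit lies above it, and Epx (9.70) and Prg2 (12.05) stand out on the MLL-AF9 array.

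Of 14 genes for making and storing mediators, 6 were tested. Alox5ap, which presents arachidonic acid for leukotriene synthesis, rose under SGC0946 by 1.36 ± 0.14 (SE), adjusted p = 0.00354, and was higher in NUP98-JARID1A lines by 1.90. Srgn, the proteoglycan core of granules, fell by 0.72 (adjusted p = 0.0272, and 0.0548 in the paired fit), and Ptgds, another prostaglandin D synthase, fell by 0.43 (adjusted p = 0.0390, and 0.0711 in that fit), with -1.05 on another probe set. There, Alox5ap was the only gene of this list that passed. Ltc4s, leukotriene C4 synthase, was higher in NUP98-JARID1A lines by 1.33 (adjusted p = 7.32e-05). Its untreated RH-RAS level, 5.71 to 5.88, lay near the array medians and may be background. Ptgds was higher in NUP98-JARID1A lines by 0.28 (adjusted p = 0.0248, with 1.48 on the other probe set). That call was lost without NUP98-JARID1A line 1 or 3 or untreated line 2 or 4, at adjusted p 0.0514 to 0.0675. The histamine and serotonin transporter Slc18a2, the serotonin enzyme Tph1, and the cytokines Il4, Il13 and Il6 were below the median on all arrays.

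Of 16 transcription factors of the lineage, all tested, 4 rose under SGC0946, 1 fell and 11 did not pass. Spi1 (1.21, adjusted p = 0.0035), Tfe3, a relative of Mitf (0.93, adjusted p = 0.00448), Cebpb (1.33, adjusted p = 0.0385) and Stat5a (0.72, adjusted p = 0.0277) rose, and Myb, a progenitor factor, fell by 1.03 (adjusted p = 0.0038). In the paired fit Cebpb (0.0690) and Stat5a (0.0574) did not pass. In NUP98-JARID1A lines 8 were higher, 1 lower and 7 did not pass, a share near the 51.0% of all genes. Gata2, needed by mast cells and basophils, read 6.20 to 6.32 in untreated RH-RAS, 5.99 and 6.09 in treated, 9.54 in MLL-AF9 and 7.14 to 8.37 in NUP98-JARID1A lines, where it was higher by 1.42 ± 0.26 (SE), adjusted p = 0.00315. Tfec, another relative of Mitf, was higher there by 5.66 ± 0.52 (SE), adjusted p = 0.000162, and Cebpa by 2.37, while Id2 was lower, at -3.52, with -2.23 on another probe set. Tfec was below the array median in untreated RH-RAS lines, where its level may be background, so its difference is a description. Gata1 differed by 0.23 with an adjusted p of 0.0718, which passed in some of the other fits (0.0404 with array medians subtracted). It was above the array median only on the MLL-AF9 array and that of NUP98-JARID1A line 3 (5.91), through which the filter admitted it. Untreated RH-RAS lines read 5.46 to 5.58 for Gata1, which may be background, so its difference is also a description in each of these fits.

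Of the 22 SGC0946 calls given for genes outside the 9 members, none passed without the treated array of line 3, where the smallest adjusted p was 0.0537. Without the treated array of line 1, or the untreated array of line 1 or line 3, 9, 8 and 9 of them passed. Those of Kit, Csf2rb, Il18r1, Alox5ap, Spi1, Tfe3, Myb and Prf1 passed in all 3 of these fits.

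Lists of markers of other cell types were counted in the same comparisons, and not all of them moved. Under SGC0946, 8 of 10 monocyte and macrophage genes rose, and the summed linear level of the list went from 1635 to 5793 in untreated RH-RAS to 31418 and 33400 in treated lines, with 9557 in MLL-AF9 and 25187 to 37278 in NUP98-JARID1A lines. Without any 1 array of lines 1 and 3, 1 or 2 of these 10 passed. Csf1r, the macrophage growth factor receptor, rose by 4.90 (adjusted p = 0.00669). Mrc1 and Adgre1, counted among the 8, were below the array median in all untreated RH-RAS lines. Of 6 tested cytotoxic T and NK cell genes, a group that Gzmb belongs with, 3 fell, namely Gzma (-5.25), Cd3g (-4.19) and Prf1 (-1.56), though a second Prf1 probe set gave -0.10, and 0 or 1 passed without any 1 array of lines 1 and 3. Gzma, Cd3g and Prf1 were above the array median on untreated RH-RAS arrays alone, so the filter admitted them where they are high. Their calls, also in the fits above, are therefore descriptions, and the treated levels may be background. In NUP98-JARID1A lines all 10 neutrophil genes were higher. Their summed level was 43280 to 110222, against 5721 to 10524 in untreated RH-RAS and 84981 in MLL-AF9. Elane, Ltf, Camp, Ngp, Lcn2, S100a8 and S100a9 were above the array median on the NUP98-JARID1A and MLL-AF9 arrays alone. The filter admitted them through the high arrays, so the count of 10 is a description. Mpo, neutrophil myeloperoxidase, was higher by 1.58 (adjusted p = 0.00231). Under SGC0946, 2 of the 10 neutrophil genes rose, Prtn3 (2.09) and Mmp8 (2.49), and 0 fell. Mmp8 read 4.91 to 5.29 in untreated RH-RAS lines, below the array median. That level may be background, so its difference is a description. In NUP98-JARID1A lines 6 of the 10 monocyte and macrophage genes were higher and 1 lower. Among the higher ones, Gpnmb was above the array median on the NUP98-JARID1A and MLL-AF9 arrays alone, through which the filter admitted it. Adgre1 in all untreated RH-RAS lines and Ms4a6d in lines 1 to 3 were below the median. This count is therefore also a description. Of the 6 cytotoxic genes 0 were higher in NUP98-JARID1A lines and 3 lower, again Gzma, Cd3g and Prf1, as descriptions. For Prf1 the probe sets disagreed in sign, with -1.26 on the set used and 1.43 on the second. Of 6 tested megakaryocyte and erythroid genes, 0 passed under SGC0946, and 2 were higher and 1 lower in NUP98-JARID1A lines. Pf4, counted as higher, was above the array median on the NUP98-JARID1A and MLL-AF9 arrays alone. The filter admitted it through these arrays, so its part in the count is a description. The part of these other cell types in the differences of the mast cell and basophil genes was not tested.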

How the data were processed

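Total RNA was measured on 10 Affymetrix Mouse Genome 430 2.0 arrays, 1 per sample. The authors deposited log2 intensity values, 1 per probe set, obtained with RMA per the submitters' processing notes. Which version or software ran it, and any scan batch, is not given in the sources used here. Of 45101 probe sets, 64 of them controls, the array's annotation listed 35890. Of these 34958 had 1 gene symbol and 932 several, and 9211 were not listed. No further normalisation was applied. The number of arrays limits the precision.

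Where a gene had several probe sets, the 1 of highest mean stood for it. Tests were run in limma 3.58.1 under R 4.3.3 (lmFit, eBayes) with Benjamini-Hochberg adjusted p over 11993 genes and a threshold of 0.05, and were tested on simulated data. SGC0946 was compared as treated minus untreated lines 1 and 3 in a fit of all 10 arrays, where untreated lines 2 and 4, MLL-AF9 and NUP98-JARID1A had coefficients of their own. NUP98-JARID1A was compared with the 4 untreated lines in the 8 arrays without inhibitor. MLL-AF9 was counted at 2 or more from the RH-RAS mean on the log2 scale and outside the RH-RAS range. Treated and untreated lines 1 and 3 are pairs, since they are the same cell lines. Their deviations from the group means correlated at 0.292. P-values rest on the spread between cultures, pooled over all groups in a fit. Those for SGC0946, also in the paired fit, therefore draw in part on the spread of the NUP98-JARID1A lines.

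The members and lists were chosen with earlier results of these data known. Named from each list were the defining genes and up to 4 genes with the largest called difference in each comparison, and for each member the 3 tested genes most correlated with it. For lists of other cell types counts and defining genes are given. Alternatives were other normalisations, filters, probe sets, controls, arrays in the fit, a trended and robust eBayes, the line as a block and leaving out each array.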

Additional observations from a re-analysis of the deposited data

Results flagged for a closer look

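On the brighter probe set of Hdc, histidine decarboxylase, the treated lines differed from their untreated arrays with opposite signs. That set (1451796_s_at) was 0.48 higher on the log2 scale with SGC0946 than without it in line 1 and differed by -0.13 in line 3. The difference between the lines was not tested, since each has 1 treated and 1 untreated array. All 4 values lay close to the array medians. The other Hdc probe set (1454713_s_at), below the median on these arrays, gave 0.0097 in line 1 and 0.12 in line 3, and Hdc passed the test under SGC0946 on neither set.

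Tpsb2, the tryptase, had an untreated RH-RAS array apart from the rest. On probe set 1451802_at untreated line 2 read 4.35 against 4.05 to 4.08 in the other 3 lines, a gap of 0.894 of the group's range, above Dixon's critical value for 4 samples. The check covered 10 probe sets, and chance gives such a value in about 1 of 20 groups. Line 2 was below its array median on this probe set.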

How the results depend on the processing

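The members called under SGC0946 were 3 in the fit reported, 5 with only the 6 RH-RAS arrays (Cpa3, Gzmb, Hpgds, Mitf and Mcpt8, the last on values below the array median), 0 with untreated line 4 alone as the control, and 0 to 4 when 1 array was left out, with 0 without any 1 of the arrays of lines 1 and 3. Over all genes, the 1434 calls became 2745, 318 and 28 to 1855 in these fits. The count for NUP98-JARID1A was 3, and 3 to 5 when 1 array was left out, while MLL-AF9 kept 4 in all settings run for it. The remaining counts stayed within 1.5 times the reported one. Signs turned for Hdc under SGC0946 without treated line 1 (range over left-out arrays -0.0064 to 0.36), for Ctsg with untreated line 4 as the control (-0.49), and for Hpgds against NUP98-JARID1A with array medians subtracted (0.019), with line number as a block (0.034), without NUP98-JARID1A line 1 (0.26) and without untreated line 4 (0.034), within -0.20 to 0.26 over left-out arrays. The cause was not tested, and none of these values passed. In the paired fit of lines 1 and 3, with the line as a block, Cpa3 had an adjusted p of 0.0662, 2 members were called and 866 genes passed over the whole array. Line numbers of RH-RAS and NUP98-JARID1A are shared in name only: deviations correlated at -0.054, -0.019 and 0.070, and 1 of 3 lines correlated best with its own number. Blocking on them gave 4 called members, Cpa3 among them (adjusted p = 0.0224). Signals near or below the array median limit Mcpt8 and Hdc in RH-RAS, Mitf in untreated RH-RAS, Hpgds in MLL-AF9, Gzmb and Tpsb2, where differences are compressed.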

Other observations

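Eosinophil granule genes, which share the granulocyte lineage with basophils, were bright on the MLL-AF9 array alone. Prg2, the eosinophil major basic protein, read 12.05 there, against 3.95 to 4.28 in untreated RH-RAS, 4.15 and 4.51 in treated RH-RAS and 4.18 to 4.56 in NUP98-JARID1A lines. Epx, eosinophil peroxidase, read 9.70 against 4.21 to 4.75, 4.64 and 4.32, and 4.33 to 4.82, and Prg3, a homolog of Prg2, read 8.27 against 4.72 to 5.23, 5.18 and 5.48, and 5.16 to 5.24. These genes were above the array median on that array only, so they were not among the genes tested, and with 1 array there is no replicate check. Il5ra, the interleukin-5 receptor chain of eosinophils, was below the median on all arrays. Siglecf, an eosinophil surface lectin, was the tested gene of this list and was higher in NUP98-JARID1A lines by 1.42 ± 0.15 (SE), with an adjusted p of 0.000305 (limma). On the MLL-AF9 array it read 8.22, within the NUP98-JARID1A range of 7.93 to 8.26. Untreated RH-RAS lines read 6.35 to 6.93.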
